A study of Mus musculus with 12 samples.

Results

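Genes of hepatic lipid uptake were followed in whole liver of mice on a diet that causes steatohepatitis. The 9 genes were taken by name from a fixed list of lipoprotein receptors, lipases, fatty acid transporters and fatty acid binding proteins. All 9 had a row among the 11791 genes of the deposited table. They are Vldlr, Lrp1, Lpl, Lipc, Cd36, Slc27a2, Slc27a5, Fabp1 and Fabp4. Liver RNA came from male mice, 10 weeks old, fed for 3 weeks on chow lacking methionine and choline (MCD), with 2 animals mixed in each pool and 4 pools in each of 3 groups. KO mice carried Lyzs cre, a recombinase driven from the lysozyme locus of myeloid cells, and were p38g/d knockouts in those cells. Anti-Ly6G mice carried Lyzs cre with no kinase deletion and were given antibody to Ly6G, which neutrophils carry on their surface. Titles of these samples read LWT GR1, while their source names give antibody to Ly6G. Sources used here do not give the dose or timing of the antibody. Control mice carried Lyzs cre and received no antibody, so that the Cre allele and the diet were common to all 3 groups. All pools were labelled C57BL/6, and a mitochondria label read C57 in KO pools 1 and 2, NZB in KO pools 3 and 4, NZB in all anti-Ly6G pools and C57 in all control pools. The antibody and this label can therefore not be told apart in anti-Ly6G against control by these groups alone.

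Recovered depth was 18.8 to 22.3 M reads in KO, 13.1 to 21.0 M in anti-Ly6G and 14.4 to 19.9 M in control pools. Values are a normalized signal, that is reads divided by a scaling factor of each library. A count of 3 reads equals a signal of 0.125 to 0.242, and every value of the 9 genes lay above this. Hepatocyte markers were abundant in each library, with a summed signal of 10 markers, Alb the highest, of 119018 to 153351 in KO, 129160 to 171060 in anti-Ly6G and 127527 to 146007 in control pools. The deleted kinase genes gave no check of the labels in whole liver, where the deletion is limited to myeloid cells. Mapk12 had a signal of 1.63 to 3.06 in KO, 1.54 to 1.86 in anti-Ly6G and 1.75 to 2.71 in control pools (KO over control 0.05, limma adjusted p = 0.922), and Mapk13 had no row. Nothing in the labels says more about the pools than that they are separate mixes, so p-values measure the spread between pools. Tests are limma-trend fits on log2(signal + 0.5) over all 12 libraries, with Benjamini-Hochberg adjustment over all 11791 genes and a threshold of 0.05. Fold changes are on this log2(signal + 0.5) scale, which understates changes of low genes.

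Liver takes up fat by several routes. Receptors of the low-density lipoprotein receptor family, such as the products of Vldlr and Lrp1, bind lipoproteins and their remnants. Lipoprotein lipase (Lpl) and hepatic lipase (Lipc) release fatty acids from triglyceride and phospholipid of lipoproteins at the cell surface. The scavenger receptor encoded by Cd36 and the transport proteins FATP2 (Slc27a2) and FATP5 (Slc27a5) bring fatty acids into the cell, the transport proteins by coupling entry to coenzyme A activation, and FATP5 also activates bile acids. Inside the cell, fatty acids are carried by binding proteins, in hepatocytes chiefly that encoded by Fabp1, and in adipocytes, macrophages and capillary endothelium that encoded by Fabp4. An MCD diet limits phosphatidylcholine synthesis and with it the export of very low-density lipoprotein, so that fat taken up by the liver accumulates.

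Vldlr and Fabp1 were the members that passed the test as higher in anti-Ly6G pools, and the bases before their start sites are shown for that reason. The RefSeq promoter table (GRCm38.p6) matched 6 of the 9 members, Vldlr, Lrp1, Lipc, Cd36, Slc27a2 and Fabp1. No window of Slc27a2 was among those searched for motifs. Capitals mark matches on either strand to any of 8 motifs searched. These were the single site of nuclear receptors, AGGTCA, and its direct repeat with 1 base between the copies, the hypoxia response core, ACGTG, and the ATF4 response element, TGATGCAA. The others were the antioxidant response element, the GC box, GGGCGG, the TATA box, TATAAA, and the box named CCAAT for its letters. Any direct repeat 1 also holds the single site. The Vldlr window is chr19:27216770-27217019, plus strand, 250 bases that end at the base before the start of 2 coding transcripts. The Fabp1 window is chr6:71199629-71199826, plus strand, 198 bases that end where the annotated first exon begins.
Vldlr: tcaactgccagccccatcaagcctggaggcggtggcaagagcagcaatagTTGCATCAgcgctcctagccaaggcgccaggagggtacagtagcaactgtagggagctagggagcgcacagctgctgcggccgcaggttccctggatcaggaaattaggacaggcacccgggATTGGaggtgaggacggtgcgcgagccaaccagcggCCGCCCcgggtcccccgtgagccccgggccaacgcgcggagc
Fabp1: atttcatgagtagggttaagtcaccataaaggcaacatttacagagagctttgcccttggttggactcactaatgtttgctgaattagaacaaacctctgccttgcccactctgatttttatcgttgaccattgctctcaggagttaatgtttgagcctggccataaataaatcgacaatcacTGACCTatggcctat
The Vldlr window held TGATGCAA, read on the opposite strand as TTGCATCA, 193 to 200 bases before its end. Of 32536 different promoter windows of 250 bases, 0.762% held this motif. It also held a CCAAT box and a GC box on the opposite strand, which were present in 33.8% and 33.0% of those windows. A Vldlr window at an upstream start site (chr19:27216234-27216483) held no match to the 8 motifs. The Fabp1 window held 1 single site, AGGTCA, on the opposite strand, 10 to 15 bases before its end. Of windows cut to the 198 bases farthest from their RefSeq start site, 11.3% held one. The Fabp1 window ends at an annotated first exon, and the cut windows need not do so. AGGTCA was also matched in windows of Cd36 and Lipc, which did not pass in any comparison. Both also held GC and CCAAT boxes, and the window of Lrp1, which fell, held a GC box. A match describes these letters only, and no binding was measured.

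Per kilobase of annotated mRNA, the order of the members in control pools ran from Fabp1 (5061 ± 595 signal per kb, SD, n = 4) over Slc27a2 (613 ± 72.0), Slc27a5 (212 ± 43.5), Cd36 (62.1 ± 15.8), Lipc (51.0 ± 9.75), Lrp1 (40.5 ± 1.01), Lpl (29.6 ± 10.9) and Fabp4 (15.1 ± 3.97) to Vldlr (0.298 ± 0.0770). Fabp1, Slc27a2 and Slc27a5 thus stood above the receptors and lipases, and Vldlr stood below every other member in all 12 pools. Cd36 and Lipc overlapped in their control pools, as did Lrp1 and Lpl, and Lpl and Fabp4. In KO pools Lpl (41.9 ± 8.60), Lipc (41.8 ± 5.64) and Lrp1 (40.1 ± 3.13) were not separated by their spread. In anti-Ly6G pools Lpl (9.36 ± 2.08) stood beside Fabp4 (9.31 ± 1.29), below Lrp1 (28.4 ± 5.94) and Lipc (48.3 ± 2.75). The lengths are those of the longest principal coding transcript, and which isoforms were present is not known from the table.

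**Figure D1:**
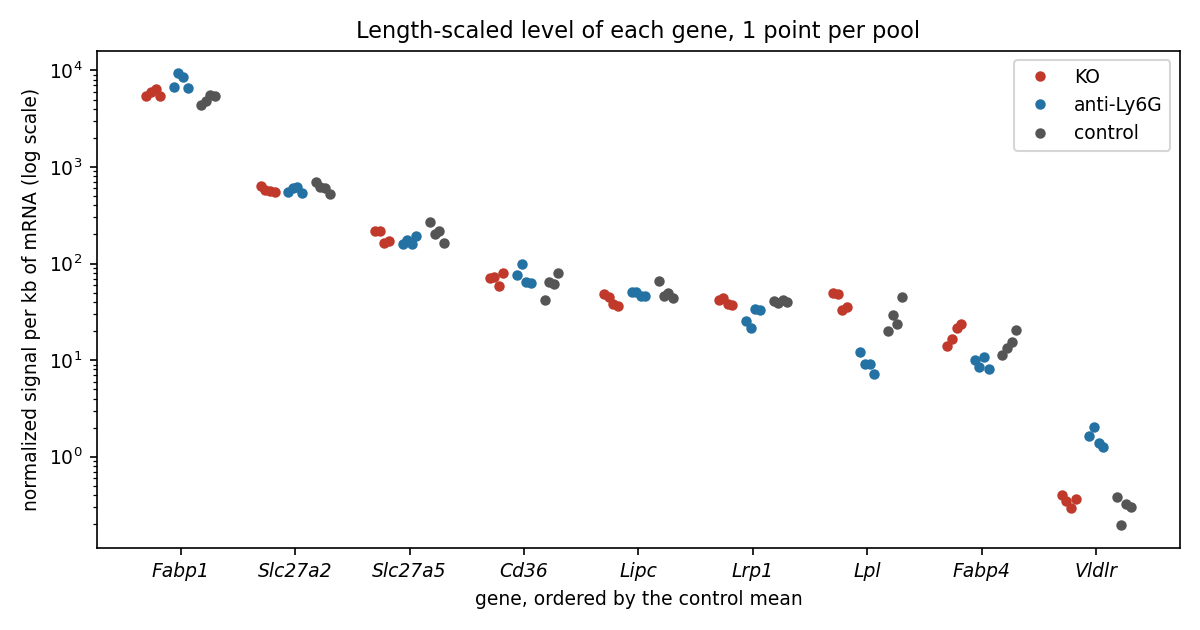
Normalized signal per kilobase of mRNA (log axis) of each gene, 1 point per pool, in KO, anti-Ly6G and control pools (4 each). Fabp1 stands highest and Vldlr lowest in every pool, and Lpl drops beside Fabp4 in anti-Ly6G pools, at 9.36 and 9.31 signal per kb on average.

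Anti-Ly6G against control was the comparison with control in which members passed the test: Vldlr and Fabp1 rose, Lpl, Lrp1 and Fabp4 fell, and 4 did not pass. The 5 of 9 stand beside 30.4% of all genes called in either direction. Higher calls made up 15.1% and lower calls 15.3% of all genes. Over the 9 members the median log2 fold change was -0.08, against -0.0022 over all genes tested. An unadjusted p under 0.05 was reached by the same 5, beside 42.3% of all genes. Pools of the 2 groups were apart in these 5, beside 27.3% of all genes. No member passed in KO against control.

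Vldlr (ENSMUSG00000024924, chromosome 19, 27216484 to 27254231, plus strand) encodes the very low-density lipoprotein receptor, which binds apolipoprotein E-rich particles and is low in normal liver. Its signal was 3.22, 2.80, 2.33 and 2.87 in KO pools 1 to 4, 13.1, 16.3, 11.1 and 10.1 in anti-Ly6G pools 1 to 4, and 3.03, 1.55, 2.55 and 2.38 in control pools 1 to 4. All 4 anti-Ly6G pools were above every other pool, while KO and control pools overlapped. These values rest on 53 to 63 reads in KO, 125 to 322 in anti-Ly6G and 31 to 48 in control pools. The log2 fold change was 2.20 ± 0.18 (SE) in anti-Ly6G against control, a 4.58-fold rise (limma, adjusted p = 3.69e-06). With the mitochondria label as a covariate it was 2.38 (limma, adjusted p = 0.00118). The label varied within KO only, so each fit with this covariate carries the difference between KO pools over to the other groups. It cannot separate the label from the antibody. Vldlr was lower in KO than in anti-Ly6G by a log2 value of -1.98 ± 0.18 (adjusted p = 1.14e-05), and by -2.07 when KO pools 3 and 4, which share the NZB label, stood alone for KO. KO over control gave 0.22 (95% confidence interval -0.17 to 0.60, adjusted p = 0.537).

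Lrp1 (ENSMUSG00000040249, chromosome 10, 127538161 to 127621148, minus strand) encodes the large endocytic receptor that clears chylomicron remnants in hepatocytes and is also found on macrophages and stellate cells. Its signal was 626, 648, 566 and 551 in KO pools, 377, 321, 499 and 495 in anti-Ly6G pools and 605, 588, 622 and 596 in control pools. Anti-Ly6G pools were all lower than the pools of the other groups, and they fell into a low pair (1 and 2) and a higher pair (3 and 4). Their coefficient of variation was 20.9%, against 2.49% in control. Lrp1 fell by 0.53 ± 0.12 (log2, SE) in anti-Ly6G against control (limma, adjusted p = 0.00570), or to 0.691 of the control level. This call was lost with the mitochondria covariate (-0.34, adjusted p = 0.306). KO exceeded anti-Ly6G by 0.52 (adjusted p = 0.00757), and with KO pools 3 and 4 alone by 0.42, which did not pass (adjusted p = 0.0768). KO and control pools differed by -0.02 (95% confidence interval -0.28 to 0.25, adjusted p = 0.962), a value that changed sign in other fits.

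Lpl (ENSMUSG00000015568, chromosome 8, 68880491 to 68907448, plus strand) encodes lipoprotein lipase, which adult hepatocytes make in small amounts and macrophages secrete. Its signal was 206, 199, 137 and 147 in KO pools, 50.0, 37.3, 37.5 and 29.3 in anti-Ly6G pools and 82.0, 122, 98.2 and 185 in control pools. Every anti-Ly6G pool lay below every other pool, and the control pools spread over a 2.25-fold range that overlapped KO. Lpl fell by 1.60 ± 0.23 (log2, SE) in anti-Ly6G against control (limma, adjusted p = 0.000266), to 0.329 of the control level. With the mitochondria covariate the change was -1.09 and did not pass (adjusted p = 0.0789). KO pools were 4.43-fold above anti-Ly6G pools (log2 2.15 ± 0.23, adjusted p = 3.85e-05), and this held with KO pools 3 and 4 alone (1.89, adjusted p = 0.00146). Lpl for KO over control was at 0.54 (95% confidence interval 0.06 to 1.03, unadjusted p = 0.0304, limma adjusted p = 0.220), which did not pass.

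Markers of some cell types moved with Lpl and Fabp4 and those of others did not, and their part in these results was not tested. Marker counts stand beside 15.1% of all genes called higher and 15.3% lower in anti-Ly6G against control. In KO against anti-Ly6G these shares were 13.6% and 13.1%, and in KO against control 1.12% of all genes were called in either direction. In whole liver, fewer cells of a type and less RNA per cell cannot be told apart. Of 16 measured genes of a monocyte and lipid-associated macrophage list, 9 fell and 1 rose in anti-Ly6G against control, with Trem2, a lipid-sensing receptor, at -1.42 (limma, adjusted p = 0.000110). The gene that rose was Plin2, a lipid droplet coat protein that hepatocytes also express and the most abundant of the list (0.47, adjusted p = 0.00462). The summed signal of the list ran from 2549 to 2792 in KO, 2068 to 2307 in anti-Ly6G and 1721 to 2647 in control pools. Without Plin2, a choice made after these values were seen, it was 767 to 1246 in KO, 245 to 354 in anti-Ly6G and 515 to 1120.0 in control pools. In KO against anti-Ly6G 13 of the 16 were higher. In KO against control none of the 16 passed, with a list median of 0.41 beside -0.0013 over all genes, and Ccr2, the receptor of recruited monocytes, had the lowest p (1.00, limma adjusted p = 0.0903). Ccr2 did pass there with DESeq2 (1.00, adjusted p = 0.0158) and without control pool 4 (1.18, limma adjusted p = 0.0432).

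Of 8 Kupffer cell genes, 2 fell in anti-Ly6G against control, Marco, a scavenger receptor, with the lowest p (-2.06, limma adjusted p = 8.71e-05) and Cd5l as the most abundant. None passed in KO against control, where Timd4, a phosphatidylserine receptor, had the lowest p (-0.38, adjusted p = 0.283). Their summed signal was 373 to 542 in KO, 282 to 453 in anti-Ly6G and 373 to 531 in control pools. Of 13 endothelial genes, 2 fell in anti-Ly6G against control (lowest p for Cdh5, -0.56, limma adjusted p = 0.0148). That share is near the 15.3% of all genes called lower. None of them passed in KO against control, where Kdr stood at -0.74 (adjusted p = 0.0595). Kdr did pass there with DESeq2 (adjusted p = 0.0105), with the mitochondria covariate (-1.09, 0.00928), with KO pools 1 and 2 only (0.00466) and without KO pool 4 (-0.95, 0.0142). Endothelial sums were 176 to 329.6 in KO, 251 to 279 in anti-Ly6G and 272 to 315 in control pools, with Stab2 as the most abundant gene. Of 10 stellate cell genes, 6 fell in anti-Ly6G against control (lowest p for Col1a2, -1.32, adjusted p = 0.000253, and -1.06 with the mitochondria covariate, which did not pass at 0.0567), and Tagln, with 36.5% unique 25-mers and therefore uncertain, rose in KO against control (0.60, adjusted p = 0.0276). That call was lost with the mitochondria covariate (adjusted p = 0.0588), with the replicate block (0.0515), with KO pools 1 and 2 only (0.0911) and without KO pool 2 or 3 or control pool 2 or 3 (0.0663 to 0.0855). Stellate sums were 503 to 622 in KO, 298 to 449 in anti-Ly6G and 399 to 564 in control pools, with Dcn as the most abundant. Of 13 neutrophil genes 4 had a row (Ly6g had none), and 3 of these fell in anti-Ly6G against control (S100a8 at -1.35, adjusted p = 0.000157). Their sums were 17.4 to 20.9 in KO, 6.30 to 10.7 in anti-Ly6G and 12.5 to 21.4 in control pools, and Csf3r, the most abundant of them and 71.4% unique, was the gene of lowest p in KO against control (0.34, adjusted p = 0.337). Of 8 adipocyte genes only Cidec and Lipe had a row, both also expressed in hepatocytes, and of 6 muscle genes only Des, which stellate cells express too (5.92 to 8.28 in KO, 3.43 to 5.63 in anti-Ly6G and 4.76 to 5.61 in control pools). Cidec was the more abundant, and Lipe was at -0.20 in KO against control (adjusted p = 0.330) and fell for anti-Ly6G over control (-0.37, adjusted p = 0.0209). The Lipe call was lost with the mitochondria covariate (-0.32, adjusted p = 0.298) and without anti-Ly6G pool 1 or 2 or control pool 4 (0.0575 to 0.0615). Sums of the adipocyte pair were 86.6 to 194 in KO, 141 to 167 in anti-Ly6G and 97.4 to 141 in control pools. In KO against anti-Ly6G, 7 of 10 stellate cell and 3 of 4 measured neutrophil genes were higher, beside 13.6% of all genes. Of 8 Kupffer cell genes 1 was higher there. Of 13 endothelial genes 0 were higher and 1 was lower (list median -0.18), and the adipocyte pair did not pass.

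**Figure D2:**
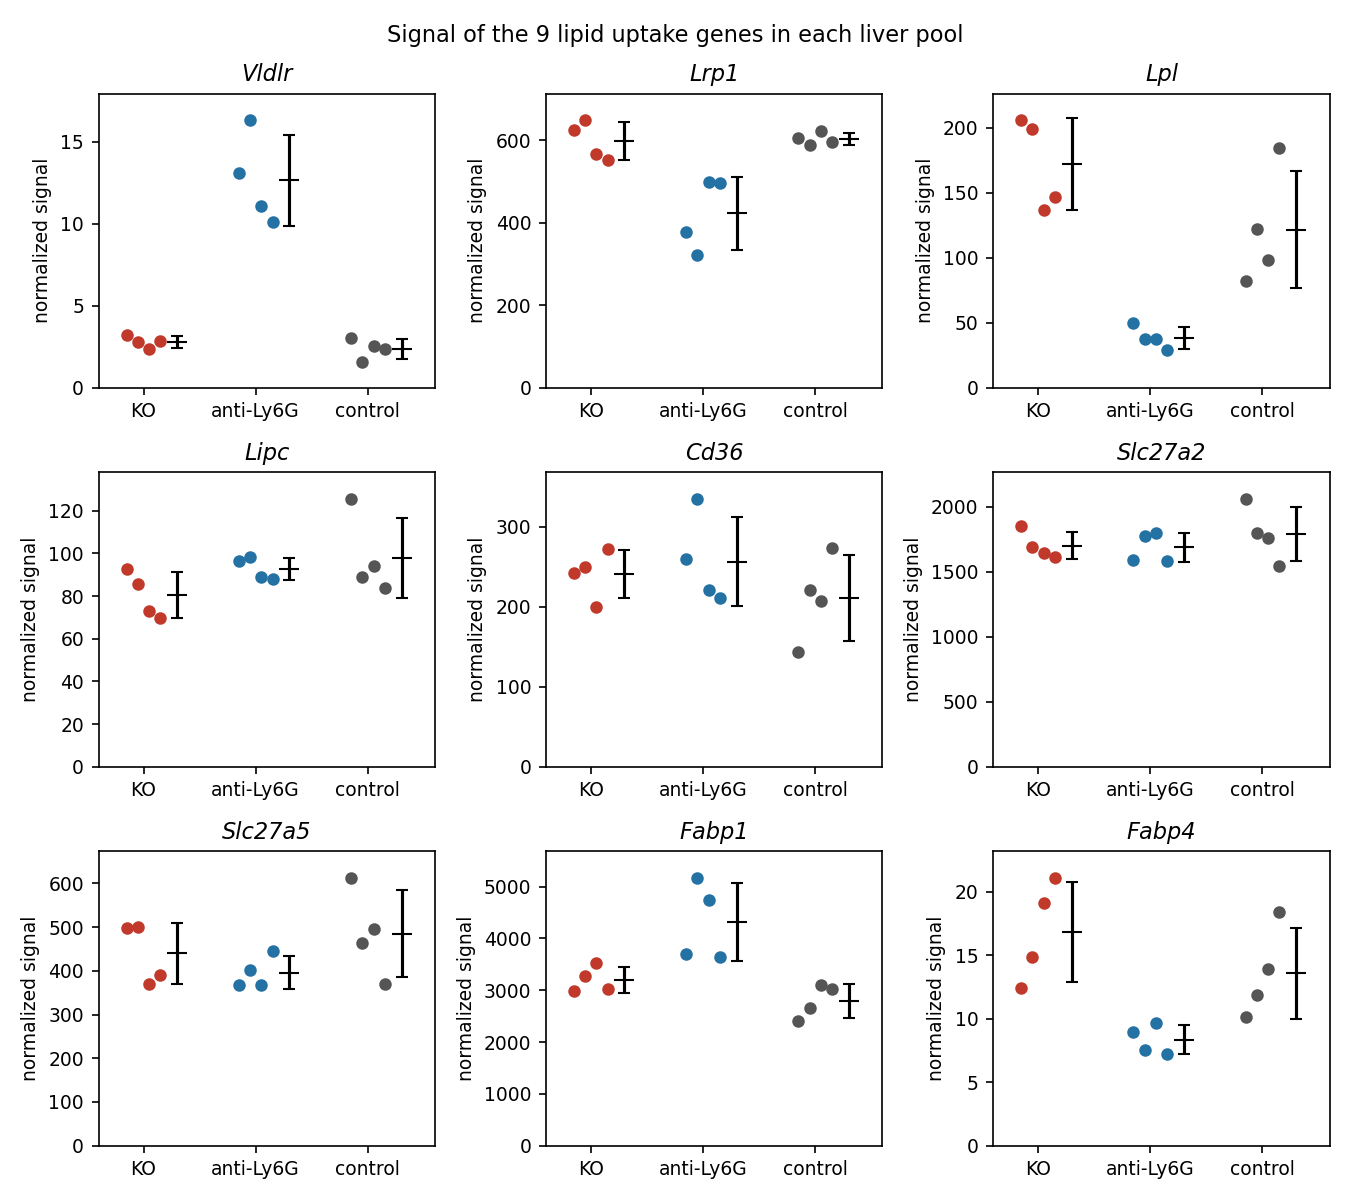
Normalized signal of each of the 9 genes in KO, anti-Ly6G and control pools (4 points a group, 1 per pool in order 1 to 4, with mean ± SD beside them). Anti-Ly6G pools stand apart above the others for Vldlr (10.1 to 16.3) and below them for Lpl (29.3 to 50.0) and Fabp4 (7.19 to 9.63).

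Lipc (ENSMUSG00000032207, chromosome 9, 70798128 to 70952226, minus strand) encodes hepatic lipase, a hepatocyte enzyme that acts on remnants and high-density lipoprotein. Its signal was 92.7, 85.8, 73.0 and 69.6 in KO pools, 96.3, 98.2, 88.7 and 87.8 in anti-Ly6G pools and 125, 88.9, 94.0 and 83.7 in control pools. The groups overlapped, with control pool 1 above all others. Lipc did not pass for KO over control (-0.28, 95% confidence interval -0.54 to -0.02, unadjusted p = 0.0372, limma adjusted p = 0.237). For anti-Ly6G over control it was -0.06 (-0.32 to 0.20, adjusted p = 0.717), and for KO over anti-Ly6G -0.21 (-0.47 to 0.04, adjusted p = 0.202), neither of which passed. Within each library, Lpl made up 46.7% to 52.0% of the length-scaled signal of the lipase pair in KO, 13.5% to 19.5% in anti-Ly6G and 23.4% to 50.7% in control pools. This share separated the anti-Ly6G pools from all others through Lpl, since Lipc overlapped.

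Among genes for fatty acid entry, none of Cd36, Slc27a2 and Slc27a5 passed in any of the 3 comparisons. Cd36 (ENSMUSG00000002944, chromosome 5, 17781690 to 17888801, minus strand), the fatty acid translocase, had a signal of 242, 249, 199.5 and 272 in KO pools, 259, 334, 220.5 and 211 in anti-Ly6G pools and 143, 221, 208 and 273 in control pools. The groups overlapped widely. The log2 difference was 0.22 in KO against control (95% confidence interval -0.17 to 0.61, limma adjusted p = 0.549). Anti-Ly6G over control gave 0.29 (-0.10 to 0.68, adjusted p = 0.237), so that a rise of up to 1.5-fold lies within both intervals. KO over anti-Ly6G gave -0.08 (-0.47 to 0.31, adjusted p = 0.786).

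Slc27a2 (ENSMUSG00000027359, chromosome 2, 126552407 to 126588243, plus strand), the more abundant transport protein, had the narrowest intervals of the 9 genes. Its signal was 1849.9, 1690.5, 1646 and 1610.4 in KO pools, 1589, 1775, 1794 and 1585 in anti-Ly6G pools and 2056, 1797, 1759.6 and 1544 in control pools. Control pools alone spanned the values of both other groups. Differences were -0.07 in KO against control (95% confidence interval -0.28 to 0.14, limma adjusted p = 0.742), for anti-Ly6G over control -0.08 (-0.29 to 0.13, adjusted p = 0.553) and 0.01 in KO against anti-Ly6G (-0.20 to 0.22, adjusted p = 0.940). A noncoding gene on the opposite strand, Gm26697, overlaps part of its exons, and whether counting used strand is not stated.

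Slc27a5 (ENSMUSG00000030382, chromosome 7, 12988346 to 12998192, minus strand) had a signal of 498, 501, 371 and 389.9 in KO pools, 368, 403, 367 and 446 in anti-Ly6G pools and 612, 464, 495 and 371 in control pools. The groups overlapped, and KO pools formed a higher and a lower pair. It was at -0.13 in KO against control (95% confidence interval -0.44 to 0.17, limma adjusted p = 0.654), at -0.27 for anti-Ly6G over control (-0.58 to 0.03, adjusted p = 0.159) and at 0.14 in KO against anti-Ly6G (-0.16 to 0.45, adjusted p = 0.485). Without control pool 4 it passed in anti-Ly6G against control (-0.40, adjusted p = 0.0409). Slc27a2 kept a similar share of the length-scaled signal of the transporter pair, at 72.6% to 77.7% in KO, 73.6% to 79.3% in anti-Ly6G and 72.5% to 76.6% in control pools.

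Fabp1 (ENSMUSG00000054422, chromosome 6, 71199827 to 71205023, plus strand) encodes the liver fatty acid binding protein of hepatocytes. Its signal was 2979.8, 3283, 3519 and 3015 in KO pools, 3705.5, 5159.6, 4730.4 and 3644 in anti-Ly6G pools and 2402, 2658, 3109 and 3026 in control pools. Each anti-Ly6G pool was above each other pool, and pools 2 and 3 were the highest. Fabp1 rose 1.53-fold in anti-Ly6G against control (log2 0.61 ± 0.13 SE, limma adjusted p = 0.00392), and with the mitochondria covariate the value was 0.56 and did not pass (adjusted p = 0.146). KO was lower than anti-Ly6G (-0.42, adjusted p = 0.0322), a call that was lost without KO pool 1, 2 or 4 or anti-Ly6G pool 2 or 3, at values of -0.43 to -0.32. KO over control gave 0.20 (95% confidence interval -0.09 to 0.48, adjusted p = 0.439). The 10 hepatocyte markers did not pass in that comparison, nor in anti-Ly6G against control, where Ahsg had the lowest p (0.33, adjusted p = 0.0531). Ahsg did pass with edgeR (adjusted p = 0.0213), DESeq2 (0.00150), a filter at a mean of 5 (0.0346) and without anti-Ly6G pool 1 (0.0337), and its anti-Ly6G pools lay above all control pools; its part in the Fabp1 result was not tested. Of the KO over control values, Trf, at 34.2% unique 25-mers and therefore uncertain, had the lowest p of them (0.24, adjusted p = 0.443), and Alb was the most abundant marker.

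Fabp4 (ENSMUSG00000062515, chromosome 3, 10204088 to 10208576, minus strand) encodes the binding protein of adipocytes, macrophages and capillary endothelium. Its signal was 12.4, 14.8, 19.1 and 21.0 in KO pools, 8.98, 7.55, 9.63 and 7.19 in anti-Ly6G pools and 10.1, 11.8, 13.9 and 18.4 in control pools. The anti-Ly6G pools were below all others, by a narrow margin to control pool 1. Fabp4 fell by 0.65 ± 0.18 (log2, SE) in anti-Ly6G against control (limma, adjusted p = 0.0181), to 0.639 of the control level. Without control pool 4 the value was -0.49 and did not pass (adjusted p = 0.0515). With the mitochondria covariate it was -1.19 and passed (adjusted p = 0.0220). KO was 1.94-fold above anti-Ly6G (0.95 ± 0.18, adjusted p = 0.00233), and by 1.23 on the log2 scale with KO pools 3 and 4 alone. KO over control gave 0.31 (95% confidence interval -0.09 to 0.70, adjusted p = 0.388).

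KO against anti-Ly6G shares its anti-Ly6G pools with the comparison above, so the values are set side by side and not counted as a second line of evidence. Lpl, Fabp4 and Lrp1 were higher and Vldlr and Fabp1 lower in KO, 5 of 9 members against 26.8% of all genes called (13.6% higher, 13.1% lower). The members' median was 0.01, against -0.012 over all genes. The same 5 had an unadjusted p under 0.05, beside 39.6% of all genes, and pools apart, beside 27.3%.

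For KO over control limma called 0 of the 9 members, as did edgeR and DESeq2 on recovered reads, while 1.12% of all genes passed (0.585% higher, 0.534% lower). An unadjusted p under 0.05 was reached by 2 members, Lpl and Lipc, beside 18.9% of all genes. In no member were KO and control pools apart, against 12.4% of all genes. The members' median log2 fold change was 0.20, against -0.0013 over all genes. Lpl with KO pools 1 and 2 alone, which carry the mitochondria label of the controls, stood at 0.80 (limma, adjusted p = 0.210).

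Within the KO group, pools 3 and 4 (NZB label) and pools 1 and 2 (C57 label) did not overlap in 6 members, against 53.9% of all genes. Fabp4 was higher in the NZB pair (mean 20.1, against 13.6 in the C57 pair), and Lpl (142 against 203), Slc27a5 (380.2 against 499.7), Lipc (71.3 against 89.3), Lrp1 (558 against 637) and Slc27a2 (1628 against 1770.2) were lower. With 2 pools a side no test was made.

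**Figure D3:**
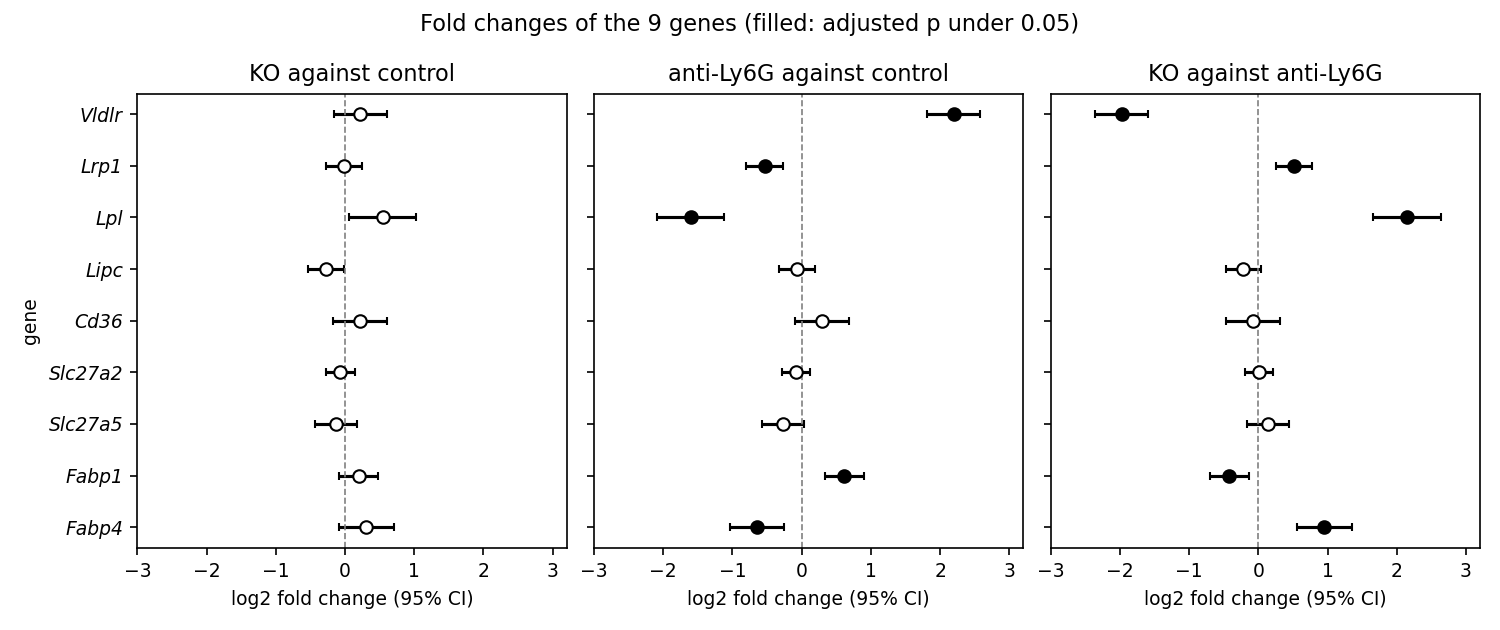
Log2 fold change on the log2(signal + 0.5) scale with its 95% confidence interval for the 9 genes in each of the 3 comparisons (limma, 12 libraries). Filled points passed an adjusted p of 0.05: 0 in KO against control, and 5 in each of the other comparisons, from -1.60 (Lpl) to 2.20 (Vldlr) in anti-Ly6G against control.

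Counts for other genes of lipid uptake in anti-Ly6G against control are a description, to be read beside the 30.4% of all genes called (15.1% higher, 15.3% lower). Of 20 measured lipoprotein receptors and adaptors, 1 rose and 5 fell. Hspg2, the heparan sulfate proteoglycan perlecan, fell (13.8 ± 2.00 in anti-Ly6G and 25.1 ± 1.85 in control pools, SD, n = 4, log2 -0.85, limma adjusted p = 0.000656), as did Sdc1, the syndecan that binds triglyceride-rich particles in liver (-0.44, adjusted p = 0.00224). Of 18 lipases and cofactors, 3 rose and 3 fell. Lmf1, a chaperone that lipoprotein lipase and hepatic lipase need to mature, fell (13.2 ± 1.77 in anti-Ly6G and 22.2 ± 1.38 in control pools, -0.73, limma adjusted p = 0.000697). Pcsk5, a proprotein convertase, fell too (-0.65, adjusted p = 0.00221), and Apoc3, an apolipoprotein that inhibits lipoprotein lipase, rose (0.54, adjusted p = 0.00344). The list medians were -0.23 and -0.0063, against -0.0022 over all genes.

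Of 18 measured genes of fatty acid transport and activation, 3 rose and 3 fell in anti-Ly6G against control. Acsl5, an acyl-CoA synthetase, rose (386 ± 26.2 in anti-Ly6G and 286 ± 11.1 in control pools, log2 0.43, limma adjusted p = 0.000496). Slc27a1, the transport protein FATP1 of muscle and fat, fell (-0.75, adjusted p = 0.00157), and so did Zdhhc4, a palmitoyltransferase that acts on CD36 (-0.57, adjusted p = 0.000837). Of 13 lipid binding proteins, 2 rose and 1 fell. Fabp2, the intestinal binding protein, rose (188 ± 20.6 in anti-Ly6G and 114 ± 3.67 in control pools, 0.71, adjusted p = 0.000129). Stard4, a sterol carrier, rose by 1.43 (adjusted p = 0.000108). Fabp5, a binding protein of epidermis and macrophages with 89.9% unique 25-mers, fell (10.6 ± 6.97 in anti-Ly6G and 30.2 ± 12.7 in control pools, -1.56, adjusted p = 0.00342), although the pools overlapped. Medians of these lists were -0.0018 and 0.04.

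Of 23 transcription factors known to act on the member genes, 5 rose and 6 fell in anti-Ly6G against control, with a list median of -0.06. Nr1h3, the oxysterol receptor LXR alpha, rose (98.6 ± 2.64 in anti-Ly6G and 69.4 ± 2.49 in control pools, log2 0.50, limma adjusted p = 5.89e-05), as did Ahr, the aryl hydrocarbon receptor (0.68, adjusted p = 0.00157). Nr1i3, the xenobiotic receptor CAR, rose (0.64, adjusted p = 0.00229) but is uncertain, with 30.3% unique 25-mers. With the mitochondria covariate Sdc1, Lmf1, Acsl5, Slc27a1, Zdhhc4, Fabp5, Ahr and Nr1i3 did not pass. In KO against control 1.12% of all genes were called in either direction. The 5 lists held 20, 18, 18, 13 and 23 measured genes, and 1 of these passed. This was Ppargc1b, a coactivator of nuclear receptors, which fell (4.85 ± 0.219 in KO and 9.53 ± 2.54 in control pools, -0.88, limma adjusted p = 0.0415). Among fits that left out 1 library it passed only without control pool 4, and the other 7 gave -0.94 to -0.72. The call was also lost with the replicate block (adjusted p = 0.0515), the mitochondria covariate (0.116) and KO pools 1 and 2 only (0.159). In KO against anti-Ly6G 13.6% of all genes were called higher and 13.1% lower, and the list counts are a description beside these shares. Of 20 receptors and adaptors 6 were higher and 1 lower, and of 18 lipases and cofactors 2 were higher and 4 lower. Of 18 transport genes 4 were higher and 3 lower, and of 13 binding proteins 1 was higher and 2 lower. Of 23 factors 1 was higher and 6 lower.

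Likeness to the 5 members that passed was measured as the mean absolute difference of log2(signal + 0.5) profiles over the 12 libraries, each centred on its own mean. The median gene lay 0.87 from Lpl, whereas Itgax (0.12), Lgals3 (0.13) and Itgb2 (0.14) were nearest, an integrin of myeloid cells, a galectin abundant in macrophages and the beta subunit of leukocyte integrins. Itgax and Lgals3 are also on the macrophage list above. Lgals3 averaged 119 ± 36.3 in KO, 33.4 ± 5.64 in anti-Ly6G and 92.9 ± 36.2 in control pools. The nearest to Lrp1 were Grn (0.07), Ugt1a1 (0.08) and Wbp2 (0.08), of which Ugt1a1 is uncertain with 18.4% unique 25-mers. Specc1 (0.10), Lrrc32 (0.12) and Slc38a1 (0.13) were nearest to Fabp4, and Rad1 (0.08), Glyat (0.09) and Hsd17b12 (0.10) to Fabp1. For Vldlr the nearest were H2-T10 (0.22, with 31.1% unique 25-mers), Prelid2 (0.29) and Gm20478 (0.29, with 65.1%), and H2-T10 and Gm20478 are uncertain. Gm20478 averaged 0.044 in KO and 0.015 in control pools, below the signal of 3 reads, so its profile there rests on the pseudocount. These distances were larger than for the other 4 members. The median gene also lay farther from Vldlr (0.93) than from Lrp1 (0.29), Fabp1 (0.28) and Fabp4 (0.43), so raw distances do not rank members. The 12 libraries hold 3 groups, so that genes with like group means come out as near.

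**Figure D4:**
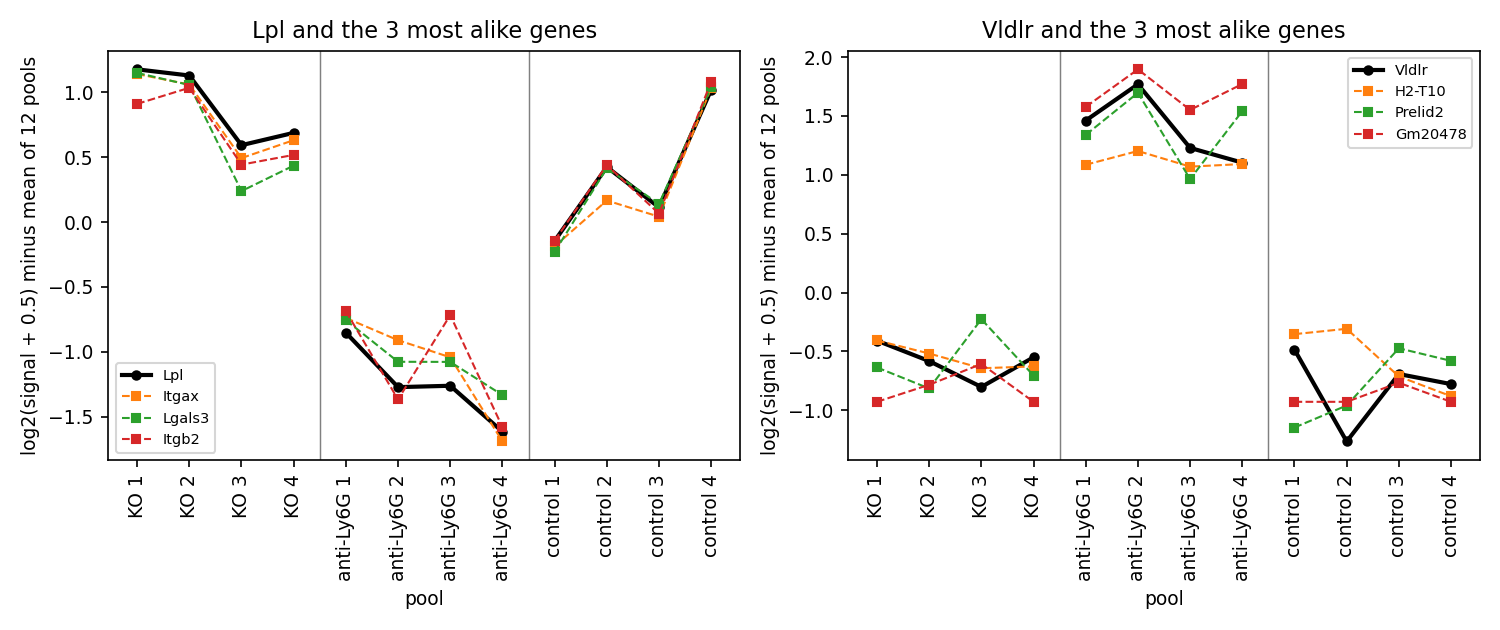
Log2(signal + 0.5) minus the mean of the 12 pools, by pool, for Lpl with Itgax, Lgals3 and Itgb2 (left) and for Vldlr with H2-T10, Prelid2 and Gm20478 (right); lines join pools of 1 group to guide the eye. The Lpl profile and its neighbours are low in all anti-Ly6G pools, and the Vldlr profile and its neighbours are high there, at distances of 0.12 to 0.14 for Lpl and 0.22 to 0.29 for Vldlr. Gm20478 averages 0.044 in KO and 0.015 in control pools, below the signal of 3 reads.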

How the data were processed

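The authors deposited 1 normalized signal per gene and library for 11791 genes. Per the submitters' processing notes the build was GRCm38 and the tools were Bowtie2 2.0.6, RSEM 1.2.3, edgeR and cutadapt 1.2.1, without roles; sources used here do not give the annotation or how genes were selected. All values (100%) were whole multiples, within 0.01, of 1 read's value in their library, and these were taken as reads; a stricter test, which needs many low values, passed in 4 of 12 libraries. Chi-square per gene between pools of 1 group was 9.61 to 63.0, above sampling noise. The filter (a group mean of 1 or more) removed no gene.

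Tests used limma 3.58.1 in R 4.3.3 with group as the only term, checked on simulated data. Alternatives were edgeR 4.0.16 and DESeq2 1.42.0 on recovered reads, pseudocounts of 0.1 and 1, no filter or a mean of at least 5, median-of-ratios scaling, the replicate number as a block, the mitochondria label as a covariate, KO pools sharing a label, and leaving out each library. Confidence intervals come from limma and cover the spread between pools. Symbols, coordinates and mRNA lengths came from GENCODE vM21 (GRCm38), where 11665 of 11791 IDs had a symbol. The share of a gene's 25-mers found in no other annotated gene measured uniqueness; it was 89.5% for Slc27a2, 93.9% for Lpl and above 99% for the other 7 members.

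Members and lists were chosen with earlier results of these data known. The genes named were the 9 members, up to 3 called genes of lowest p per pathway list in anti-Ly6G against control and up to 2 in KO against control, per marker list the most abundant gene and that of lowest p in each comparison with control, and the 3 genes most alike to each member that passed. One gene that this rule names is not reported here.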

Additional observations from a re-analysis of the deposited data

Results flagged for a closer look

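No group of 4 pools of the 9 members had a pool far from the others. Of 135 groups of 4 tested over members and named genes, 7 did, and chance alone gives about 1 in 20. The highest pool stood apart for Fabp5 in anti-Ly6G (21.0 in pool 3, others 6.22 to 8.16), Slc27a1 in KO (39.8 in pool 1, others 30.5 to 31.7), Trem2 in control (21.5 in pool 4, others 14.1 to 15.2) and Lipe in control (23.4 in pool 4, others 19.4 to 19.8). The lowest pool stood apart for Pcsk5 in anti-Ly6G (8.31 in pool 2, others 9.74 to 9.97), Zdhhc4 in anti-Ly6G (11.4 in pool 1, others 13.3 to 13.5) and Nr1h3 in KO (75.5 in pool 2, others 81.1 to 82.2).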

How the results depend on the processing

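Over the 27 member results, 442 of 477 values under other settings kept direction and side of the threshold. A call was lost in 13 and gained in 1, and 21 changed sign. Every sign change was in a comparison in which that member did not pass. The sign changes were Lrp1 in KO against control (0.080 with the mitochondria covariate or KO pools 1 and 2 only, -0.055 to 0.023 without 1 library), Slc27a5 (0.065 with the covariate or KO pools 1 and 2 only) and Slc27a2 (-0.14 to 0.00034 without 1 library) there, Lipc (0.26 with the covariate, -0.13 to 0.061 without 1 library), Slc27a2 (0.039, covariate) and Slc27a5 (0.12, covariate) in anti-Ly6G against control, and in KO against anti-Ly6G Slc27a2 (-0.048 with the covariate or KO pools 3 and 4 only, -0.030 to 0.043 without 1 library), Slc27a5 (-0.055 with either) and Cd36 (-0.16 to 0.059 without 1 library). Members called in anti-Ly6G against control were 5, and 2 with the covariate (Vldlr and Fabp4); in KO against anti-Ly6G they were 5, and 3 with the covariate or with KO pools 3 and 4 only (Vldlr, Lpl and Fabp4). Leaving out 1 library gave 0 members called for KO over control, 5 for anti-Ly6G over control and 4 to 5 for KO over anti-Ly6G. The 5 for anti-Ly6G over control were not always the same genes. Without control pool 4, Fabp4 was lost (limma adjusted p = 0.0515) and Slc27a5 was gained (0.0409). The covariate's effect was estimated from KO pools alone, where the label varies, and was assumed to be the same in the other groups. Calls kept or lost with it therefore do not separate the label from the antibody. The covariate also widens standard errors even where the label has no effect. For the 32 other gene results, 511 of 552 values kept their call, 31 lost it, 13 of these with the covariate, and 10 gained one.

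Over all genes, 132 were called in KO against control, 577 with DESeq2, 20 with the replicate block, 79 with the covariate, 58 with KO pools 1 and 2 only and 3 to 319 without 1 library (38, 34, 23 and 87 without KO pools 1 to 4, and 38, 3, 47 and 319 without control pools 1 to 4). EdgeR on recovered reads called 153 genes there, 3558 in anti-Ly6G against control and 3169 in KO against anti-Ly6G. In anti-Ly6G against control the count was 3580, 973 with the covariate and 2791 to 3646 without 1 library. In KO against anti-Ly6G it was 3157, 2041 with KO pools 3 and 4 only and 2367 to 3266 without 1 library. Higher and lower genes in KO against control were 25 and 54 with the covariate, 13 and 45 with KO pools 1 and 2 only, and 69 and 63 as reported. The cause of these shifts was not tested. Same-numbered pools had correlations of deviations from -0.21 to 0.17, and 4 of 12 libraries correlated best with their own number, so the numbers were not taken as pairs; the block changed no member call. Depth limits Vldlr most, at 31 reads in control pool 2.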
